A study of Mus musculus with 7 samples.

Results

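The 7 mouse genes of the Fos family (Fos, Fosb, Fosl1, Fosl2) and the Jun family (Jun, Junb, Jund) were taken by gene symbol from a table of 47729 genes, and all 7 were among the 19684 genes with enough counts to be tested. The table holds RNA of whole forebrain from mice at postnatal day 15, of the strain F1(C57BL/6 X 129Sv), untreated. Control libraries (n = 4) came from Lhx6+/- mice and mutant libraries (n = 3) from Lhx6-/- mice, and each library pooled 2 animals. The allele, Lhx6tm2Vpa, is a constitutive null that is carried by every cell, and the controls also carry it on 1 chromosome, so no wild-type brain was compared. Lhx6 is a LIM-homeodomain factor needed for the maturation of cortical interneurons born in the medial ganglionic eminence. The libraries are named here by genotype and by the number in the deposited column (controls 2, 3, 10 and 11, mutants 5, 12 and 13).

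Fos and Jun proteins together make activator protein 1 (AP-1), a family of paired transcription factors. Fos proteins do not pair stably among themselves and bind DNA in company with a Jun protein, whereas Jun proteins can also pair with each other, so the mixture of members present sets which AP-1 complexes can form. In forebrain neurons Fos, Fosb and Junb are immediate early genes, transcribed within minutes of synaptic activity through the factors CREB and SRF, while Jund is kept on at rest and Jun protein is activated by the Jun N-terminal kinases, a pathway known from injured and dying neurons. Fosb also yields a truncated, long-lived protein, ΔFosB, by alternative splicing, and counts per gene do not separate the transcripts.

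The stretch just upstream of the transcription start holds sites for activity-dependent factors in the immediate early genes. The 250 bases before the RefSeq start (build GRCm38.p6) were available for 6 of the 7 members, and Fosl1 had no entry. The core of the cAMP response element, the CREB motif, was searched as TGACG on either strand (CGTCA is the same site read from the other strand). It was present in Fos, Fosb and Junb, and these 3 are printed because they hold it. Capitals mark TGACG and, in Fos, the TATA box TATAAA, and every sequence is written 5′ to 3′ on the gene's own strand. The window of Fos is chr12:85473640-85473889 (plus strand), that of Fosb chr7:19310046-19310295 (minus strand) and that of Junb chr8:84978749-84978998 (minus strand).
Fos: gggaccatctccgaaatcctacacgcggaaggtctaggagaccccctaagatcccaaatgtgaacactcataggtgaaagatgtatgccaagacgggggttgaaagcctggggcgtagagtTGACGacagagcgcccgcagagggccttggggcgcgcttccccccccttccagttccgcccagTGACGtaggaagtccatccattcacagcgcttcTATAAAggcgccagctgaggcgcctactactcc
Fosb: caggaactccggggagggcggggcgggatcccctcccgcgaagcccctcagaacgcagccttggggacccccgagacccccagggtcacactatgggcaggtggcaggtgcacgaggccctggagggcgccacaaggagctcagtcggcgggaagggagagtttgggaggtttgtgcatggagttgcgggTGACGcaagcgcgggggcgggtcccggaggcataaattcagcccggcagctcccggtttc
Junb: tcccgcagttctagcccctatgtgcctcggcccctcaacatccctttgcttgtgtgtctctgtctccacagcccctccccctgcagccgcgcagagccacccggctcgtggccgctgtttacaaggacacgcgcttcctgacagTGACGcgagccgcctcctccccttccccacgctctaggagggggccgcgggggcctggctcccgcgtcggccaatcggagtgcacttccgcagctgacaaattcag
Counted back from the start, TGACG lay at bases -129 to -125 and -66 to -62 of Fos, at -60 to -56 of Fosb and at -106 to -102 of Junb. The 250 bases of Fosl2, Jun and Jund did not contain these letters on either strand. TGACG is a common word, held by 5836 of 32851 promoters of this length (17.8%). The TATA box of Fos, at -33 to -28, was held by 7.59% of promoters. The full element TGACGTCA (1.55% of promoters), the AP-1 site TGACTCA or its complement TGAGTCA (4.46%) and the CArG box, the binding site of SRF (1.47%), were found in none of the 6 windows, and the CCAAT box, searched as CCAAT and ATTGG (33.9%), in Jun and Junb. Sites farther upstream than 250 bases were not searched, so a motif missing from a window may still lie beyond it.

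The members are spread over 6 chromosomes (coordinates of GRCm38, Ensembl annotation). The Fos family genes have introns: Fos (ENSMUSG00000021250, chr12:85473890-85477273), Fosb (ENSMUSG00000003545, chr7:19302696-19310051), Fosl1 (ENSMUSG00000024912, chr19:5447703-5455945) and Fosl2 (ENSMUSG00000029135, chr5:32135801-32157842). The Jun family genes are each annotated as a single exon: Jun (ENSMUSG00000052684, chr4:95049034-95052222), Junb (ENSMUSG00000052837, chr8:84976909-84978748) and Jund (ENSMUSG00000071076, chr8:70697739-70700616). Practically no stretch of read length was shared with another gene on the same strand (at most 0.0104% of the 36-base words, in Fosl2).

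Library totals ran from 32556183 to 38068931 counts, and every member was far above the 0.0788 to 0.0921 CPM (counts scaled to library size) that 3 counts make. As a check of the labels, Lhx6 had 475.9 to 615.2 normalized counts in controls and 70.1 to 76.6 in mutants. The defining forebrain markers were present, 7 of 7 genes passing the filter with summed levels of 522.3 to 642.2 CPM in controls and 605.3 to 724.1 CPM in mutants, whereas 1 of 7 hindbrain markers passed. Library numbers fall in 2 runs (2, 3 and 5, and 10 to 13), which the first principal component (39.6% of the variance) separated. The labels do not say what the runs are, so values within each run are given beside each member's result. In bulk tissue, fewer cells of a type and less RNA per cell cannot be told apart.

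Compared per kilobase of exon, so that long and short genes can be set side by side, Jund was the most abundant member and Fosl1 the least. In controls the level was 45.2 ± 7.62 CPM per kb for Jund, 27.4 ± 4.80 for Junb, 19.1 ± 1.64 for Jun, 14.5 ± 2.92 for Fos, 5.15 ± 0.88 for Fosl2, 2.12 ± 0.276 for Fosb and 1.54 ± 0.392 for Fosl1 (mean ± SD, n = 4). This order held within every control library. Over the control libraries the ranges of neighbours were apart, except those of Jun and Fos, and of Fosb and Fosl1, which overlapped. In mutants the level was 42.0 ± 6.16 CPM per kb for Jund, 23.8 ± 2.96 for Jun, 21.3 ± 7.58 for Junb, 19.7 ± 7.84 for Fos, 7.57 ± 0.655 for Fosl2, 4.30 ± 1.37 for Fosb and 1.76 ± 0.40 for Fosl1 (mean ± SD, n = 3). There Jun, Junb and Fos overlapped each other, and Fosb, at 2.73 CPM per kb or more, lay above the highest Fosl1 value of 2.22. Jun and Junb thus stood in opposite order by their means in the 2 genotypes, and this switch lies within the spread of the mutant libraries.

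To ask whether the loss of Lhx6 was accompanied by a change in AP-1 transcripts, each member was compared between genotypes in a fit across all tested genes (edgeR's quasi-likelihood test, Benjamini-Hochberg adjustment over 19684 genes). Fosb was higher in mutants, with about 2.03 times the control count. No other member passed an adjusted p of 0.05. Over all tested genes 4.85% passed, 2.97% as higher and 1.87% as lower in mutants, beside 1 of 7 members higher and none lower. The mean was higher in mutants for 5 members and lower for 2, Junb and Jund. The median log2 fold change of the 7 was 0.32, and that of all tested genes was -0.01. At an unadjusted p of 0.05 or less, 3 members (Fosb, Fosl2 and Jun) and 3590 of all tested genes passed. In 2 members, Fosb and Fosl2, every mutant library lay above every control library, beside 10.7% of all tested genes that were separated in this direction and 19.7% in either.

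**Figure D1:**
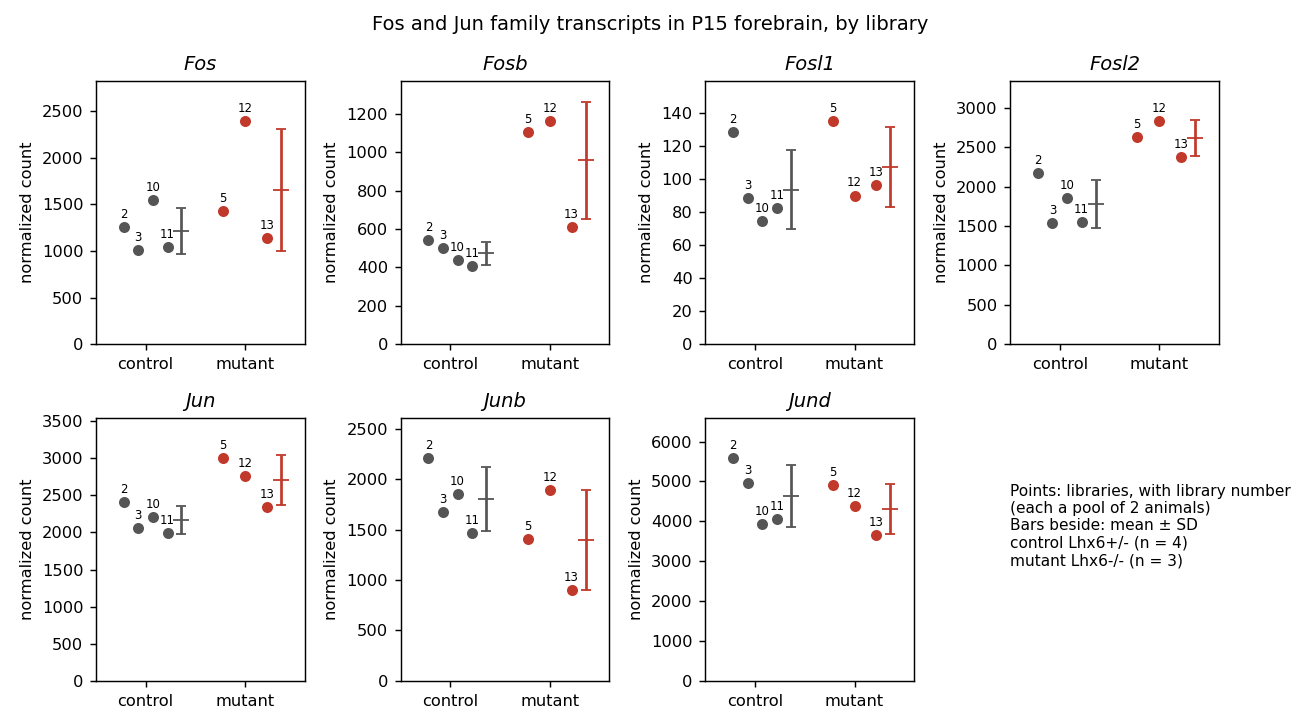
Normalized counts (vertical axes, from 0) of the 7 members in each library, labelled with its number, for control (grey) and mutant (red) forebrain, with the mean ± SD beside. Fosb and Fosl2 have no mutant library within the control range, and Fos and Junb spread widely among the mutants, where library 12 is highest and library 13 lowest.

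Fos, the classical activity-induced member, had 1258, 1015, 1546 and 1044 normalized counts in controls 2, 3, 10 and 11, against 1430, 2394 and 1138 in mutants 5, 12 and 13. Mutant library 12 was the highest of all and the other mutants lay inside the control range. The means were 1216 ± 245 (SD, n = 4) and 1654 ± 657 (SD, n = 3), a log2 fold change of 0.44 (SE 0.25, 95% interval -0.12 to 1.01, edgeR adjusted p = 0.409). The change within the runs of library numbers was 0.33 (2, 3 and 5) and 0.45 (10 to 13). Without mutant library 12 the log2 fold change fell to 0.08 (edgeR adjusted p = 0.925), so most of the difference in means came from that library.

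Fosb, the member whose ΔFosB product accumulates with repeated activity, had 541.8, 503.1, 439.4 and 405.5 normalized counts in controls 2, 3, 10 and 11 and 1104, 1161 and 607.9 in mutants 5, 12 and 13. The groups did not overlap, and mutant library 13 stood nearer to the controls than to the other mutants. The means were 472.4 ± 61.4 (SD, n = 4) and 957.9 ± 304.4 (SD, n = 3), a log2 fold change of 1.02 (SE 0.22, 95% interval 0.53 to 1.51, edgeR adjusted p = 0.0331). Within the runs the change was 1.08 (2, 3 and 5) and 1.07 (10 to 13). The estimate stayed between 0.86 and 1.26 in 16 alternative fits, but the call was made in 9 of them. The adjusted p passed 0.05 without control 2 (0.0539), control 3 (0.0555), control 10 (0.0875), control 11 (0.0817), mutant 5 (0.105) or mutant 12 (0.132), and with limma-voom (0.0518), and it was lowest with DESeq2 (0.00015).

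Fosl1 (Fra-1), a member better known from growth-factor responses and migrating cells, was the rarest. It had 128.3, 88.4, 74.8 and 82.3 normalized counts in controls 2, 3, 10 and 11 and 135.1, 90.0 and 96.6 in mutants 5, 12 and 13. The highest library of each genotype (2 and 5) belonged to the same run of numbers and the groups overlapped, with a log2 fold change of 0.20 (95% interval -0.34 to 0.74, edgeR adjusted p = 0.742). Within the runs the change was 0.32 (2, 3 and 5) and 0.25 (10 to 13), and single libraries moved the estimate, to 0.01 without mutant 5, 0.11 without control 10, 0.31 without mutant 12 and 0.39 without control 2. In a later annotation of the same build, 54.0% of the 36-base words of Fosl1 are shared with transcripts of the opposite strand, and the library kit named in the labels does not mark strand, so its count is uncertain.

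Fosl2 (Fra-2), a slower and longer-lasting member, had 2177, 1532, 1851 and 1549 normalized counts in controls 2, 3, 10 and 11 and 2629, 2830 and 2379 in mutants 5, 12 and 13. The groups were separate, the nearest libraries being mutant 13 and control 2. The means were 1777 ± 304 (SD, n = 4) and 2613 ± 226 (SD, n = 3), a log2 fold change of 0.56 (SE 0.13, 95% interval 0.26 to 0.86, edgeR adjusted p = 0.0509). This missed the threshold narrowly, with changes of 0.50 (2, 3 and 5) and 0.62 (10 to 13) within the runs. It passed in 9 of 16 alternative fits, among them DESeq2 (adjusted p = 0.00301), limma-voom (0.04999), the fit where the run was a covariate (0.0253), libraries 10 to 13 alone (0.0103) and the fit without control 2 (0.0183), and it was weakest without mutant 12 (0.181).

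Jun, the member that the Jun N-terminal kinases activate, had 2415, 2060, 2213 and 1996 normalized counts in controls 2, 3, 10 and 11 and 3004, 2761 and 2339 in mutants 5, 12 and 13. Mutant 13 lay below control 2, so the groups overlapped at this point. The means were 2171 ± 186 (SD, n = 4) and 2701 ± 337 (SD, n = 3), a log2 fold change of 0.32 (SE 0.11, 95% interval 0.07 to 0.56, edgeR adjusted p = 0.152). Within the runs the change was 0.43 (2, 3 and 5) and 0.28 (10 to 13), and Jun passed in 1 of 16 alternative fits, where the run was a covariate (adjusted p = 0.0459).

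Junb, an immediate early gene that often restrains Jun, had 2211, 1675, 1850 and 1468 normalized counts in controls 2, 3, 10 and 11 and 1404, 1894 and 899.6 in mutants 5, 12 and 13. Libraries 5 and 13 were below every control, while library 12 lay among them. The means were 1801 ± 315 (SD, n = 4) and 1399 ± 497 (SD, n = 3), a log2 fold change of -0.36 (95% interval -0.90 to 0.17, edgeR adjusted p = 0.487). Within the runs the change was -0.47 (2, 3 and 5) and -0.25 (10 to 13), and it was -0.13 without mutant 13 and -0.64 without mutant 12. In the later annotation named above, 6.32% of the 36-base words of Junb are shared with transcripts of the opposite strand. In none of the 16 alternative fits did Junb, Fos, Fosl1 or Jund pass the threshold.

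Jund, the constitutive member, had 5592, 4950, 3933 and 4064 normalized counts in controls 2, 3, 10 and 11 and 4905, 4384 and 3647 in mutants 5, 12 and 13. Libraries 2, 3 and 5 were the highest, and the genotypes overlapped, with a log2 fold change of -0.10 (95% interval -0.44 to 0.24, edgeR adjusted p = 0.798). Within the runs the change was -0.10 (2, 3 and 5) and 0.01 (10 to 13).

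The Jund locus holds another gene model, Gm11175, on the opposite strand within its exon, where it covers 18.9% of Jund's exonic bases, and in the later annotation 49.6% of the 36-base words of Jund are shared with the opposite strand. Gm11175 had 302.7, 0, 946.9 and 1184 normalized counts in controls 2, 3, 10 and 11 and 416.7, 1353 and 860.8 in mutants 5, 12 and 13. Its share of the joined count of both models was 0% to 7.83% in libraries 2, 3 and 5 and 19.1% to 23.6% in libraries 10 to 13, so the split followed the run of library numbers and not the genotype. Without strand information reads of the overlap cannot be attributed to either model. Joined, they had 5895, 4950, 4880 and 5248 normalized counts in controls and 5321, 5737 and 4508 in mutants, and in these joined values the runs overlapped. The joined log2 fold change was -0.02 (95% interval -0.26 to 0.23, edgeR adjusted p = 0.967), an interval that leaves out a change of the size seen for Fosb. For Jun, an overlapping model on the other strand, Junos, covered 7.28% of its exonic bases with 12.1 to 32.6 normalized counts, and joining it left the log2 fold change at 0.32 (edgeR adjusted p = 0.149).

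**Figure D2:**
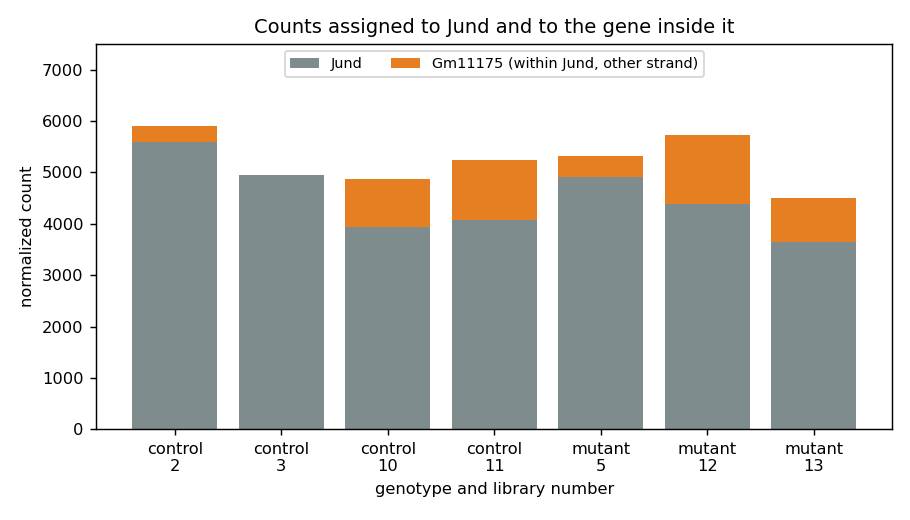
Normalized counts (vertical axis, from 0) assigned to Jund (grey) and to Gm11175, the gene model inside it on the other strand (orange), stacked for each library (horizontal axis). The orange part is 0% to 7.83% of the bar in libraries 2, 3 and 5 and 19.1% to 23.6% in libraries 10 to 13, whatever the genotype.

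**Figure D3:**
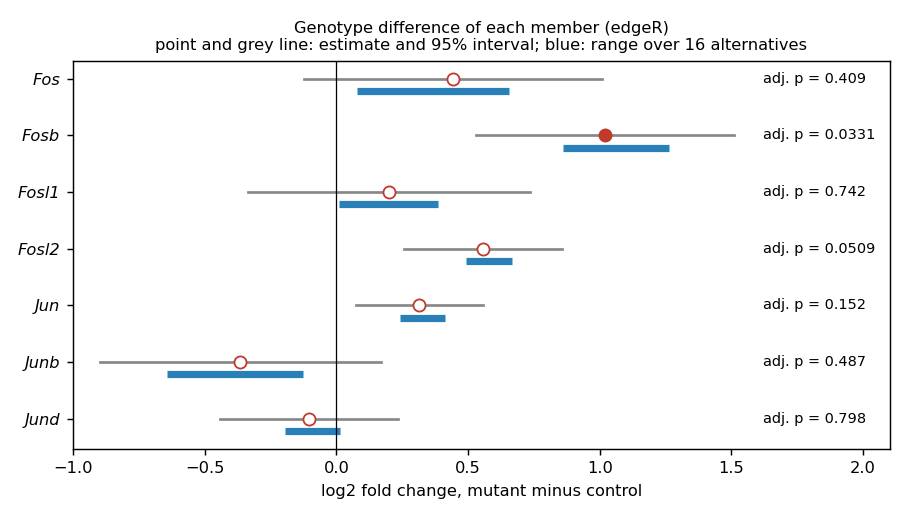
Log2 fold change of each member, mutant minus control (horizontal axis), with its 95% interval (grey line) and the range of the estimate over 16 alternative fits (blue bar). The filled point, Fosb, is the single member past an adjusted p of 0.05. The intervals of Fosb, Fosl2 and Jun leave out 0.

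Members also differed in how steady they were among libraries of a genotype. The within-genotype SD of log2 counts was 0.41 for Fos, 0.39 for Junb, 0.36 for Fosb, 0.32 for Fosl1, 0.23 for Jund, 0.20 for Fosl2 and 0.15 for Jun, beside a median of 0.21 over all tested genes. Fos, Junb and Fosb, the immediate early members, were thus the 3 most variable by this measure, which joins both genotypes, and Jun was the steadiest. The order differed between genotypes. In controls Fosl1 varied most (SD 25.6% of the mean), and Fosb varied less than every member but Jun (8.59%). In mutants Fos (39.7%), Junb (35.5%) and Fosb (31.8%) varied most and Fosl2 least (8.65%). Among mutants, library 12 was the highest for Fos, Fosb, Fosl2 and Junb and library 13 the lowest for Fos, Fosb, Fosl2, Jun, Junb and Jund.

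Since several members were high in library 12 and low in library 13 together, a ratio within each library sets aside what moves both genes alike. Fosb, the only member past the threshold in these same libraries, was compared in this way with each of the other 6 members. The p-values of its ratios are therefore not independent of its own difference between genotypes. The clearest case was Fosb to Junb, with 0.245, 0.301, 0.238 and 0.277 Fosb counts per Junb count in controls 2, 3, 10 and 11 and 0.787, 0.613 and 0.676 in mutants 5, 12 and 13. Every mutant ratio was more than 2 times the highest control ratio. The mean log2 ratio was -1.92 ± 0.157 (SD, n = 4) in controls and -0.54 ± 0.181 (SD, n = 3) in mutants, a difference of 1.38, or 2.61-fold (two-sided exact permutation test p = 0.0571, adjusted over 6 ratios 0.0857). With 4 libraries against 3 there are 35 splits, so 0.0571 is the smallest p this test can give and the threshold of 0.05 cannot be reached. Leaving out each library in turn kept the difference between 1.29 and 1.47.

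The ratios of Fosb to Jund, Fosl1 and Jun were also higher in every mutant than in every control library. Fosb, being higher itself, had such a separate and higher ratio to 50.9% of all other tested genes, beside 4 of the 6 members. The differences against Jund, Fosl1 and Jun on the log2 scale were 1.07, 0.77 and 0.66, each with the smallest p possible (exact permutation p = 0.0571, adjusted 0.0857). Leaving out each library in turn gave 0.92 to 1.25 against Jund, 0.48 to 1.00 against Fosl1 and 0.51 to 0.86 against Jun. With Gm11175 joined to Jund the difference from Jund was 0.99. For the ratios to Fos and Fosl2 the genotypes overlapped. The log2 difference was 0.58 against Fos (exact permutation p = 0.114, adjusted 0.137) and 0.40 against Fosl2 (exact permutation p = 0.171, adjusted 0.171). Leaving out each library in turn gave 0.38 to 0.71 against Fos and 0.28 to 0.64 against Fosl2. The order of the 6 differences was not tested and depended on single libraries. Without mutant 12 the difference was 0.71 against Fos, 0.51 against Jun and 0.48 against Fosl1. Over all 21 pairs of members, which share genes, 9 ratios did not overlap between genotypes, and over all pairs of tested genes 19.4% did not. Beside the 4 ratios of Fosb, these were Fosl2, Fos and Jun to Junb, with log2 differences of 0.98, 0.81 and 0.72, and Fosl2 and Jun to Jund, with 0.67 and 0.41, each pair named after its values were seen and given with no test.

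**Figure D4:**
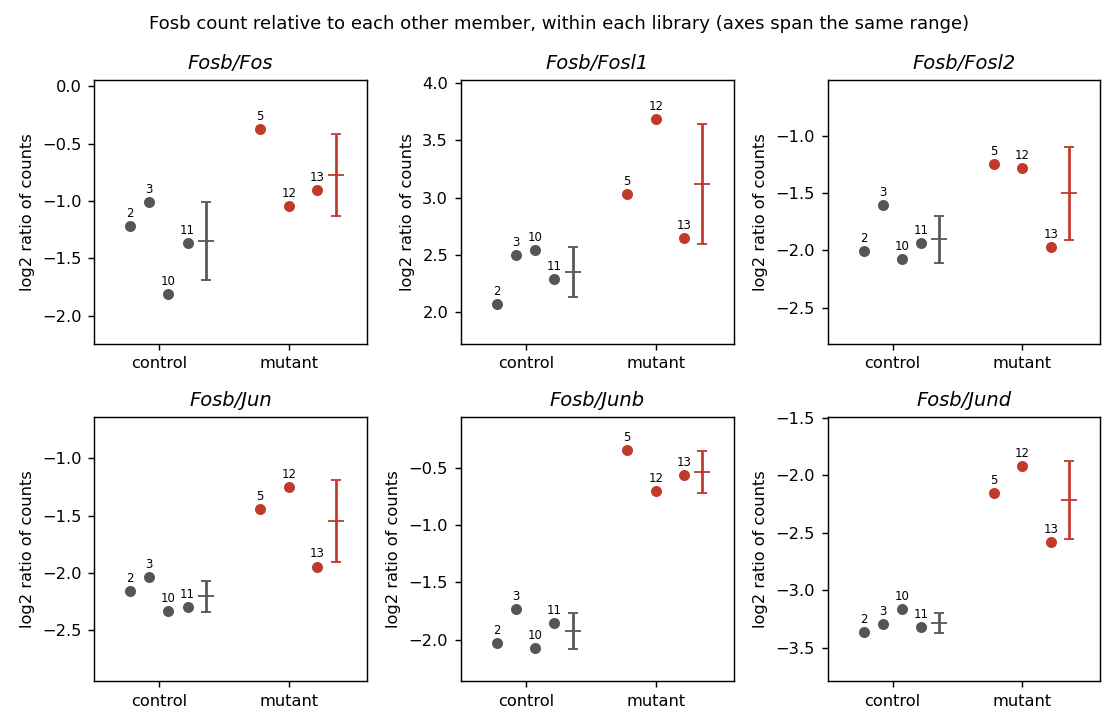
Log2 ratio of the Fosb count to the count of each other member (vertical axes, all spanning the same range) in each library, labelled with its number, for control (grey) and mutant (red), with the mean ± SD beside. Fosb to Junb is the widest gap, 1.38 between the means, and the ratios to Fos and to Fosl2 overlap between genotypes.

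The per-length levels can also be added up within each family to describe the make-up of the AP-1 transcripts, as a description with no test. Fosb made up 9.42%, 11.2%, 7.31% and 9.06% of the Fos family sum in controls 2, 3, 10 and 11 and 15.6%, 12.01% and 11.02% in mutants 5, 12 and 13, so that mutant 13 and control 3 crossed. Fos held the largest share of its family in every library, 58.0% to 68.3% in controls and 53.5% to 65.7% in mutants. Jun made up 19.4% to 22.6% of the Jun family sum in controls and 25.3% to 29.5% in mutants, without overlap. Jund held 44.6% to 52.5% in controls and 44.6% to 50.9% in mutants and remained the main Jun family transcript. The Jun family sum was 3.19 to 4.54 times the Fos family sum in controls and 2.21 to 3.00 times in mutants, so Jun transcripts were in excess in every library. The genotypes again did not overlap, though control 10 (3.19) and mutant 5 (3.00) lay close. Among ratios of all pairs of tested genes 19.4% did not overlap, and no such background is given here for family sums or shares. These are transcript levels and say nothing of protein.

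The genes whose levels followed the members most closely over the 7 libraries were looked up among 15760 tested genes with a mean of at least 1 CPM, and they are a description, since the libraries share their genotypes and runs. Fos was followed by Slc25a25 (Pearson r = 0.98, n = 7), a mitochondrial carrier, Slitrk1 (0.93) and 2410016O06Rik (0.93). These followed the highs and lows between libraries, with log2 fold changes between genotypes of 0.06 to 0.08. Fosb was followed by Plpp4 (r = 0.97), Adamts14 (0.97), an extracellular protease, and Tmem86a (0.96), which had log2 fold changes of 0.44, 0.94 and 0.38 (edgeR adjusted p = 0.0974, 0.0559 and 0.0899). Junb was followed by Wbp2 (r = 0.98), Myrip (0.92) and 1110012L19Rik (0.92), with log2 fold changes of -0.10, -0.14 and -0.25.

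The genes around AP-1 were then described as 5 lists, for which the 4.85% of all genes that passed and their median of -0.01 stand as background. Of 12 further AP-1 partner genes, which encode other leucine zipper proteins able to pair with Fos or Jun, 10 were tested, 1 was higher and 3 were lower in mutants (median log2 fold change -0.15). Atf3, a stress-induced partner of Jun, had 34.0, 14.1, 17.3 and 19.3 normalized counts in controls 2, 3, 10 and 11 and 68.0, 96.3 and 59.7 in mutants 5, 12 and 13. Every mutant was above every control, with a log2 fold change of 1.82 (SE 0.33, edgeR adjusted p = 0.0171), wider than that of Fosb though from a low level. Jdp2, a repressor that pairs with Jun, fell from 1283 ± 93.3 (SD, n = 4) to 951.3 ± 58.8 (SD, n = 3), a log2 fold change of -0.43 (edgeR adjusted p = 0.0298). Maf, also known as a factor of interneurons from the medial ganglionic eminence, fell by 0.45 on the log2 scale (edgeR adjusted p = 0.0248). Mafg, Atf2, Atf7 and Mafk, the most abundant partners that did not pass, had log2 fold changes of -0.17, -0.13, 0.03 and 0.33. Leaving out a library gave 0 to 2 genes higher (2 without control 2 and 0 without control 10 or 11 or mutant 12 or 13) and 0 to 2 lower (2 without control 3, 1 without control 2 or 10, and 0 otherwise).

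Of 23 kinases and factors upstream of the family, 3 were higher and 2 lower (median log2 fold change -0.11). Whether each of them raises or lowers transcription of the family was not tested. Crem, a CREB relative that binds the element whose core is printed above, rose from 462.5 ± 65.0 (SD, n = 4) to 678.5 ± 5.08 (SD, n = 3), a log2 fold change of 0.55 (edgeR adjusted p = 0.0388). Elk3, an SRF partner, rose by 0.43 and Rps6ka4, the kinase MSK2, by 0.38 on the log2 scale (edgeR adjusted p = 0.0473 and 0.0165). Mapk14, the stress kinase p38α, fell by 0.42 and Rps6ka2, a ribosomal S6 kinase, fell by 0.53 (edgeR adjusted p = 0.0382 and 0.0338), the latter with control 3 well below the other controls. Mapk10, Mkl2 and Mapk9, among the most abundant of those that did not pass, had log2 fold changes of -0.18, -0.12 and -0.07, and Creb1 and Srf themselves, named after their values were seen, had -0.04 and -0.26 (edgeR adjusted p = 0.903 and 0.291). These calls lay close to the threshold: leaving out a library gave 0 to 2 genes higher (2 without control 3, 1 without control 2 and 0 otherwise) and 0 or 1 lower (1 without control 3 and 0 otherwise).

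Of 10 regulators of Jun and Fos protein, mostly ubiquitin ligases and kinases, 1 was higher and none lower (median log2 fold change -0.03). This was Rfwd2 (Cop1), the ligase that marks Jun for degradation, with 1735, 1824, 1923 and 1748 normalized counts in controls 2, 3, 10 and 11 and 2462, 2395 and 2731 in mutants 5, 12 and 13. Its genotypes were well apart, with a log2 fold change of 0.48 (SE 0.08, edgeR adjusted p = 0.0109), and the call was lost without mutant 13, where the list had 0. Fbxw7, Csnk2a1 and Trib2, among the most abundant others, had log2 fold changes of -0.13, -0.06 and 0.19 and did not pass.

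Of 22 genes known from other systems as targets of AP-1, 20 were tested, 6 were higher and 1 was lower (median log2 fold change 0.46). Penk, which encodes the enkephalin precursor, had 2272, 4025, 2454 and 3518 normalized counts in controls 2, 3, 10 and 11 and 6160, 7999 and 6923 in mutants 5, 12 and 13, a log2 fold change of 1.196 (SE 0.20, edgeR adjusted p = 0.013) without overlap. Vim, the intermediate filament vimentin of astrocytes and progenitors, rose from 1506 ± 137 (SD, n = 4) to 3284 ± 424 (SD, n = 3), a log2 fold change of 1.12 (edgeR adjusted p = 0.0011). Cd44, a hyaluronan receptor, rose by 1.34, Plau, the urokinase plasminogen activator, by 1.16, Spp1, osteopontin, by 1.32 and Timp1, a protease inhibitor, by 2.16 on the log2 scale (edgeR adjusted p = 0.00449, 0.0077, 0.0102 and 0.02). Control 10 stood above the other controls for Spp1 and below every mutant. Camk2a, Gria2, Cdk5 and Ccnd1, the most abundant that did not pass, had log2 fold changes of -0.49, -0.03, -0.12 and 0.11. Without a library the list had 4 to 9 genes higher (4 without mutant 12 or 13) and 0 to 2 lower (2 without control 3 and 0 without control 10 or mutant 5, 12 or 13).

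Of 20 other immediate early genes, 3 were higher and none was lower (median log2 fold change 0.11). Npas4, an activity-induced factor of neurons, had 560.4, 290.2, 599.6 and 490.9 normalized counts in controls 2, 3, 10 and 11 and 1537, 2872 and 1175 in mutants 5, 12 and 13, a log2 fold change of 1.94 (SE 0.33, edgeR adjusted p = 0.013). As for Fosb, the genotypes were separate and library 12 was the highest and library 13 the lowest mutant. Cyr61, a matricellular protein, and Csrnp1, a nuclear factor, rose by 1.08 and 0.87 on the log2 scale (edgeR adjusted p = 0.0281 and 0.0112). Egr1, Arc, Homer1 and Nr4a1, the most abundant that did not pass, had log2 fold changes of -0.30, -0.07, 0.08 and 0.17 (edgeR adjusted p = 0.482, 0.937, 0.826 and 0.775), all 4 with overlapping genotypes and with library 12 as the highest mutant. Without a library 2 or 3 genes of the list were higher (2 without control 2 or 11 or mutant 5 or 12) and 0 or 1 lower (1 without control 11 or mutant 12).

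**Figure D5:**
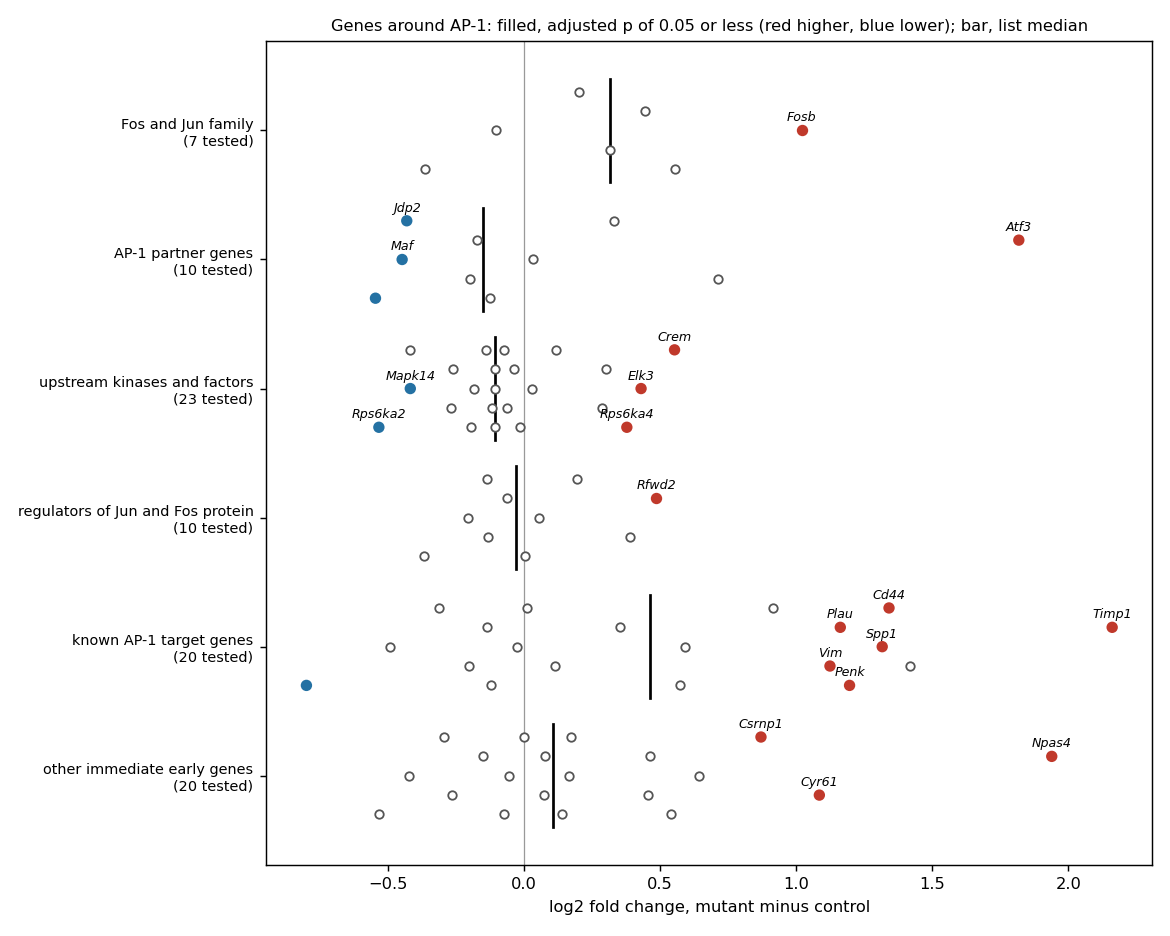
Log2 fold change, mutant minus control (horizontal axis), of each tested gene in the Fos and Jun family and in the 5 lists around AP-1 (rows). Filled points passed an adjusted p of 0.05 (red higher, blue lower), those described in the text are named, open points did not, and the vertical bar is the list's median, which is 0.46 for known AP-1 targets and between -0.15 and 0.32 for the others.

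Markers of the cell types of the forebrain were measured beside these genes. Oligodendrocyte markers were lower in mutants for 8 of 8 genes, 3 of which passed, with summed levels of 6863 to 8724 CPM in controls and 4945 to 6035 CPM in mutants. Astrocyte markers were positive for 7 of 8 genes, 1 of which passed, with 5978 to 8619 CPM in controls and 9402 to 10990.4 CPM in mutants. The marker that passed was Gfap, with a mean of 6537 normalized counts in controls and 25200 in mutants. Its log2 fold change was 1.95 (edgeR adjusted p = 7.4e-05). Slc1a2, the most abundant astrocyte marker (mean 6378 CPM), had a log2 fold change of 0.44 and did not pass (edgeR adjusted p = 0.200). Endothelial markers were positive for 8 of 8 genes with none passing, at 207.5 to 280.5 CPM in controls and 273.9 to 336.0 CPM in mutants. Neuronal markers (6053 to 6834 CPM and 6403 to 7261 CPM) and microglial markers (317.9 to 327.5 CPM and 273.5 to 313.5 CPM) had no gene past the threshold. Blood markers (328.4 to 900.3 CPM and 177.7 to 529.5 CPM) and choroid plexus markers (131.3 to 281.5 CPM and 65.6 to 216.7 CPM) had none either. No marker was at 0 in every library. Astrocyte and endothelial markers moved in the same direction as Fosb, Vim and Cd44, and oligodendrocyte markers in the opposite direction, and their part in these results was not tested.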

How the data were processed

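Forebrain RNA of 7 pools (4 control, 3 mutant) was read as 36 bp single-end reads. The authors trimmed reads with cutadapt 1.9.1, aligned them with Bowtie2 2.2.9 to the GRCm38 transcriptome (Ensembl) and deposited expected counts per gene from RSEM 1.2.31, not normalized, which share reads among genes they match equally. A deposited DESeq2 comparison of the authors (fold changes, p-values) was used for gene symbols only. Each column is named by genotype and a number; 0 columns of per-sample values had no group. The labels give no link from these numbers to RNA quality or sex, so neither entered a fit.

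Expected counts were rounded. The test, on genes reaching 10 counts in 3 or more libraries, was made after TMM normalization with edgeR 4.0.16 (quasi-likelihood F-test, R 4.3.3), without covariates, and p-values were adjusted by the method of Benjamini and Hochberg, with a threshold of 0.05. Normalized counts divide each count by the library's effective size relative to the average size. Levels per kb divide CPM by exon length. Ratios used counts plus 0.5 and a two-sided exact permutation test. Pools were not stated to be of separate litters, so p-values measure the spread between these pools. No pair of libraries of a genotype agreed within sampling noise (chi-square per degree of freedom 9.36 to 65.9), so each counted as 1 replicate. Alternatives were DESeq2 1.42.0, limma-voom (limma 3.58.1), other normalizations and filters, the run of library numbers, each library left out, and, chosen after seeing the data, libraries 10 to 13 only and joined overlapping genes. The edgeR script was tested on simulated data.

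Named genes were the 7 members, every gene of a list that passed, up to 4 of the most abundant that did not, and the 3 genes most correlated with Fos, Fosb and Junb. Some genes of the lists are counted but not reported here by name. The members and lists were chosen with earlier results of these data known. Promoter sequences are RefSeq's.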

Additional observations from a re-analysis of the deposited data

Results flagged for a closer look

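In 35 genes named from the family and its lists, the 4 control libraries were searched for a library far from the other 3, which chance gives in about 1 of 20 groups, and 2 were found. Rps6ka2, a ribosomal S6 kinase, had 2492 normalized counts in control library 3, below the 3263 to 3346 of the other controls and above the 2039 to 2249 of the mutants. Spp1, osteopontin, had 151.6 normalized counts in control library 10, above the 91.4 to 99.8 of the other controls and below the 233.7 to 311.5 of the mutants. None of the 7 Fos and Jun family members had such a library.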

How the results depend on the processing

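The direction of Fos, Fosb, Fosl1, Fosl2, Jun and Junb held in every alternative tried. Jund, with an estimate near 0, ran from -0.20 (without mutant library 5) to 0.0047 (without mutant library 13) when each library was left out, and was 0.014 with libraries 10 to 13 only and 0.0061 in the means within libraries 10 to 13. The number of members called higher was 1, and it was 2 with DESeq2, with RLE or upper quartile normalization, without a filter on low counts, with at least 10 counts in all 7 libraries and with libraries 10 to 13 only, and 3 when the run of numbers entered as a covariate, where Fosb, Fosl2 and Jun passed. It was 0 to 1 when each library was left out, and with limma-voom or without control library 2 the member called was Fosl2 and not Fosb. No alternative called a member lower (0). Over all genes, 585 were higher and 369 lower, against 1002 and 729 with DESeq2, 1213 and 992 with the run as a covariate and 1068 and 799 with libraries 10 to 13 only. Leaving out each library gave 223 to 587 higher and 79 to 382 lower. In the lists around AP-1, counts were equal to or above those reported in both fits. With the run as a covariate they were 3 higher and 3 lower for partner genes, 4 and 4 for upstream kinases and factors, 3 and 2 for regulators of protein, 9 and 2 for known targets and 6 and 1 for other immediate early genes, and with DESeq2 2 and 3, 3 and 3, 2 and 1, 8 and 2, and 5 and 1. The cause of these shifts was not tested. The ratios of Fosb to the other members kept their sign in every alternative, with 0.28 (to Fosl2) as the smallest log2 difference when a library was left out.

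No paired analysis was possible because the columns carry none of the replicate numbers of the labels. Depth did not limit the members, whose lowest normalized count was 74.8. With 3 mutant pools the adjusted p-values of Fosb and Fosl2 lay near 0.05. Sequence shared with the opposite strand leaves the counts of Jund, Fosl1, Jun and Junb less certain.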
